A study of Mus musculus with 6 samples.

Results

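The respiratory chain of mitochondria was examined through the nuclear genes that encode its protein subunits and a number of its assembly factors. Members were the array rows with exactly 1 gene symbol starting with Nduf (complex I), Sdha to Sdhd (complex II), Uqcr (complex III) or Cox4i, Cox5, Cox6, Cox7 or Cox8 (complex IV), without pseudogenes. This gave 80 of 41345 rows, which name 74 of 22180 genes. The prefixes also take in 8 complex I and 4 complex II assembly factors, which are described apart from the subunits. A further 10 rows were left out because they list several symbols, and 1 because it names a pseudogene. Of the 74 genes, 72 were bright enough to test, and all 72 were at or above the log2 floor of 5 on each of the 6 arrays. The testis isoforms Cox7b2 and Cox8c were below that floor on every array.

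Whole retina of male mice was taken at postnatal day 17. Both groups carry a floxed allele of the X-linked gene Atrx, which encodes a chromatin remodeller. The 3 knockout mice are Chx10Cre+/-;Atrx flox/y, and the 3 mice called wildtype are Chx10Cre-/-;Atrx flox/y, with the floxed allele but without Cre. Chx10 is expressed in retinal progenitors, so the Cre should act in cells derived from them, and vessels and microglia should keep Atrx. Atrx was not measured by cell type here. No label says whether the mice share litters. Each sample held the retinas of both eyes, hybridised to 1 Affymetrix mouse gene array. An effect of Cre itself cannot be told apart from that of losing Atrx. Atrx had log2 values of 8.42, 8.72 and 8.33 in knockout and 9.04, 8.86 and 9.17 in wildtype retina. These do not overlap, but the difference of -0.53 (SE 0.12) missed the threshold (limma, adjusted p = 0.115).

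The chain passes electrons from NADH (complex I) and succinate (complex II) through ubiquinone to complex III, cytochrome c and complex IV, where oxygen is reduced. Complexes I, III and IV pump protons, and ATP synthase uses the resulting gradient. Most subunits are encoded in the nucleus and a few in mitochondrial DNA. Retina is among the tissues with the highest oxygen use, and photoreceptor inner segments are packed with mitochondria. Nuclear respiratory genes are known to share promoter elements for the factors NRF1, GABP (an ETS factor) and YY1.

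RefSeq promoter windows (build GRCm38.p6, 250 bases before to 50 after the start) were at hand for 61 of the 74 members. They were searched on both strands for the letters CCGGAAG (ETS) and AAGATGGCG (YY1) and for the NRF1 motif, which is GCGC, any base and TGCGC in a row, or on the opposite strand GCGCA, any base and GCGC. The NRF1 letters were in 13 of the 61 members (21.3%), against 9.64% of 12111 tested genes with a window. The ETS letters were in 16 (26.2%, against 16.4%) and the YY1 letters in 5 (8.20%, against 2.91%). At least 1 of these was found in 30 members (49.2%, against 25.8%). Genes of like function held more: 58.1% of 62 mitochondrial ribosomal protein genes and 70.6% of 17 ATP synthase genes had at least 1 of the motifs. The windows of 3 members are shown because they differ in what the array measured: Ndufaf4 was higher on all knockout arrays, Sdha had the lowest log2 change of all members, and Sdhd holds both NRF1 and ETS letters. They run 5′ to 3′ with the matched letters, as read on the gene's strand, in capitals.
Ndufaf4, chr4:24897833-24898132, plus strand: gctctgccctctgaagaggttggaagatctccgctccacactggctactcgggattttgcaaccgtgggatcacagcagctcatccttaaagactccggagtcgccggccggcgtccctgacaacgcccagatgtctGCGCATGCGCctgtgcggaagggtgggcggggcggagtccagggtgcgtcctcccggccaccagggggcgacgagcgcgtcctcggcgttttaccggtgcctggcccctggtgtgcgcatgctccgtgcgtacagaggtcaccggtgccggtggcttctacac
Sdha, chr13:74350191-74350490, minus strand: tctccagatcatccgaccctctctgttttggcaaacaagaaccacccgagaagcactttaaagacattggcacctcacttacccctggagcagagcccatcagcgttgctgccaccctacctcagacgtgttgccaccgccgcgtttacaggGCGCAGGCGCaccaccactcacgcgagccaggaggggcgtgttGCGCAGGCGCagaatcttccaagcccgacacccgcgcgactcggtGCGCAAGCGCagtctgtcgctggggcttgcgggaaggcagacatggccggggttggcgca
Sdhd, chr9:50603800-50604099, minus strand: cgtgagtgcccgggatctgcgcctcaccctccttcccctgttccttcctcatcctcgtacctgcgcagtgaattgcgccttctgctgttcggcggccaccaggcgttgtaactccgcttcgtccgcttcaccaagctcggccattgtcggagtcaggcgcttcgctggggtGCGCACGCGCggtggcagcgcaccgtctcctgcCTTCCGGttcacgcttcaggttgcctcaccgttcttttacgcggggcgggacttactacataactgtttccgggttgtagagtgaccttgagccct
The matches in Sdha and Sdhd are to the opposite-strand form, and the NRF1 and ETS letters of Sdhd do not overlap. A match describes letters and not binding. The 13 members with NRF1 letters had a median log2 change of 0.08, and the 47 tested members with a window but without these letters had a median of 0.09. With any of the motifs the median was 0.07 (30 members), and without it was 0.13 (30 members).

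The respiratory chain as a set was slightly higher in knockout retina, and no member passed the threshold. Of the 72 members tested, 0 were called at an adjusted p under 0.05 (limma), against 0.826% of all 15619 genes (129 genes) and 0.48% called higher in knockout. At an unadjusted p under 0.05, 7 members (9.72%) were higher and 0 lower in knockout, where the background was 6.99% of genes higher and 6.5% lower. A share of 9.72% lies near its background. The sign of the change stood further from the background: 64 of 72 members (88.9%) had a log2 change above 0, against 50.9% of all genes. The median log2 change of the members was 0.09, a fold of 1.07, and the median of all genes was 0.00. No member was lower by more than 0.1, while 34 were higher by more than 0.1, 9 by more than 0.2 and 3 by more than 0.3.

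**Figure D1:**
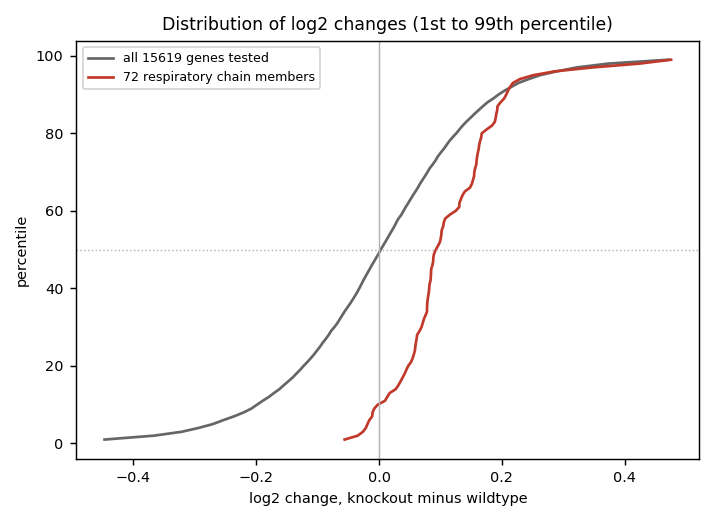
Percentile of the log2 change (x axis, knockout minus wildtype) among the 72 respiratory chain members (red) and all 15619 genes tested (grey), from the 1st to the 99th percentile. The member curve crosses 50% at 0.09 and the curve of all genes at 0.00. The curves first cross between the 91st percentile (members 0.210, all genes 0.204) and the 92nd (0.214 and 0.216). They cross again between the 96th (0.286 and 0.290) and the 97th (0.347 and 0.322).

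Between arrays of the same group the members' median varied with an SD of 0.069. For single members the median SE was 0.096, and the 95% interval typically reached 0.22 to each side. The members are measured on the same 6 arrays and are not replicates of each other. The largest fold was 1.40 (Ndufaf6), and the upper bound of the interval went past 1.5-fold for 3 members, Ndufaf6, Ndufa4l2 and Cox4i2.

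Much of the shift came from 1 array. Knockout 1 held the highest value of 48 of 72 members (66.7%), whereas it was the highest array for 21.1% of all genes. On that array 58 members lay above every wildtype value, against 31 on knockout 2 and 27 on knockout 3. Over all genes the corresponding shares were 34.5%, 36.5% and 28.3%, and the members' shares were 80.6%, 43.1% and 37.5%. Averaged over the members, the value minus the gene's wildtype mean was 0.22 on knockout 1, 0.07 on knockout 2 and 0.05 on knockout 3. The wildtype arrays stood at -0.03, -0.01 and 0.04. Knockout 3 was thus close to wildtype 3. Without knockout 1 the median log2 change was 0.05 and 51 of 72 members were above 0. Without any other single array the count was between 60 and 69. Without knockout 2 and wildtype 1, the arrays rich in lens RNA, the median was 0.11 and 62 were above 0.

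**Figure D2:**
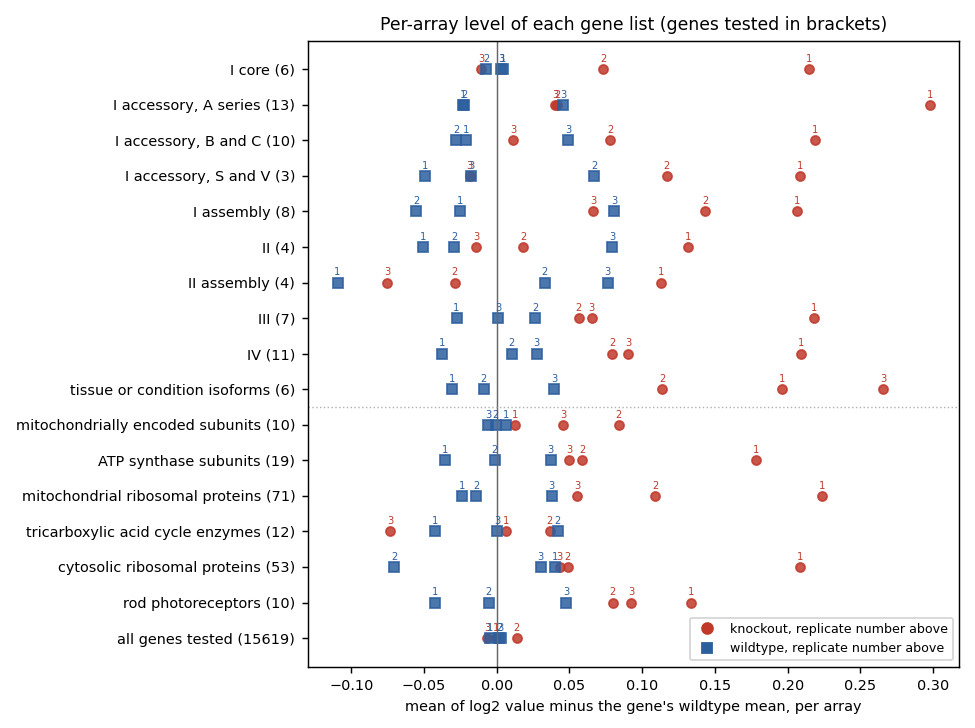
Mean over a gene list of the log2 value minus that gene's wildtype mean (x axis), for each array (red circles knockout, blue squares wildtype, replicate number above). Rows above the dotted line are the members by role, and rows below it are other lists. Knockout 1 lies farthest right for each role except the tissue or condition isoforms, where knockout 3 does (0.27, against 0.20 on knockout 1). Knockout 1 stands at 0.21 to 0.30 for subunits of complexes I, III and IV and at 0.13 for those of complex II. For subunits encoded in mitochondrial DNA it stands at 0.01.

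Complex I takes electrons from NADH. Its 6 tested catalytic core subunits belong to the peripheral arm, which holds the flavin and iron-sulphur clusters. Their log2 changes ran from 0.01 to 0.15 (median 0.09), all above 0 and none called. Ndufs7, an iron-sulphur subunit next to the ubiquinone site, had values of 10.66, 10.17 and 10.33 in knockout and 10.26, 10.23 and 10.22 in wildtype retina. Knockout 1 alone was well above the wildtype arrays and knockout 2 was below them, so the groups overlap (difference 0.15, SE 0.12, adjusted p = 0.62). Without knockout 1 the difference was 0.02. Ndufv2, an iron-sulphur subunit of the NADH-oxidising module, was at 0.13 (SE 0.12), and Ndufs8 at 0.10 (SE 0.08).

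The accessory subunits surround this core. All 13 of the A series, including the acyl carrier protein Ndufab1, had log2 changes above 0 (0.03 to 0.27, median 0.13), and none was called. Ndufab1, which also serves mitochondrial fatty acid synthesis, had values of 6.96, 6.89 and 6.86 in knockout and 6.66, 6.73 and 6.68 in wildtype retina. Its groups do not overlap and the arrays of each lie close together (0.21, SE 0.07, unadjusted p = 0.019 in limma's fit, adjusted p = 0.27). Leaving out any single array gave differences between 0.18 and 0.23. Ndufa2 showed a larger difference of 0.27 (SE 0.13, adjusted p = 0.39) that rested on fewer arrays. Its knockout values were 9.71, 9.19 and 9.44 against 9.14, 9.16 and 9.23, and knockout 2 lay within the wildtype range. Ndufa12, a subunit of the peripheral arm, was at 0.20 (SE 0.10).

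Subunits of the B and C series belong to the membrane arm, which pumps protons. Of the 10 tested, 8 were above 0 and 2 below (-0.02 to 0.23, median 0.10), none called. Ndufb8 had values of 7.26, 7.29 and 7.10 in knockout and 6.89, 7.05 and 7.01 in wildtype retina. The groups do not overlap, with knockout 3 only just above wildtype 2 (0.23, SE 0.09, adjusted p = 0.30). Ndufb3 had 7.29, 7.40 and 7.28 in knockout and 7.20, 6.95 and 7.15 in wildtype retina. Here too no values overlap (0.22, SE 0.09, adjusted p = 0.35). Ndufb5 was at 0.16 (SE 0.11) with overlapping groups. Of the remaining accessory subunits, Ndufv3 was at 0.16, Ndufs5 at 0.09 and Ndufs4 at 0.06, with SEs between 0.09 and 0.11.

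**Figure D3:**
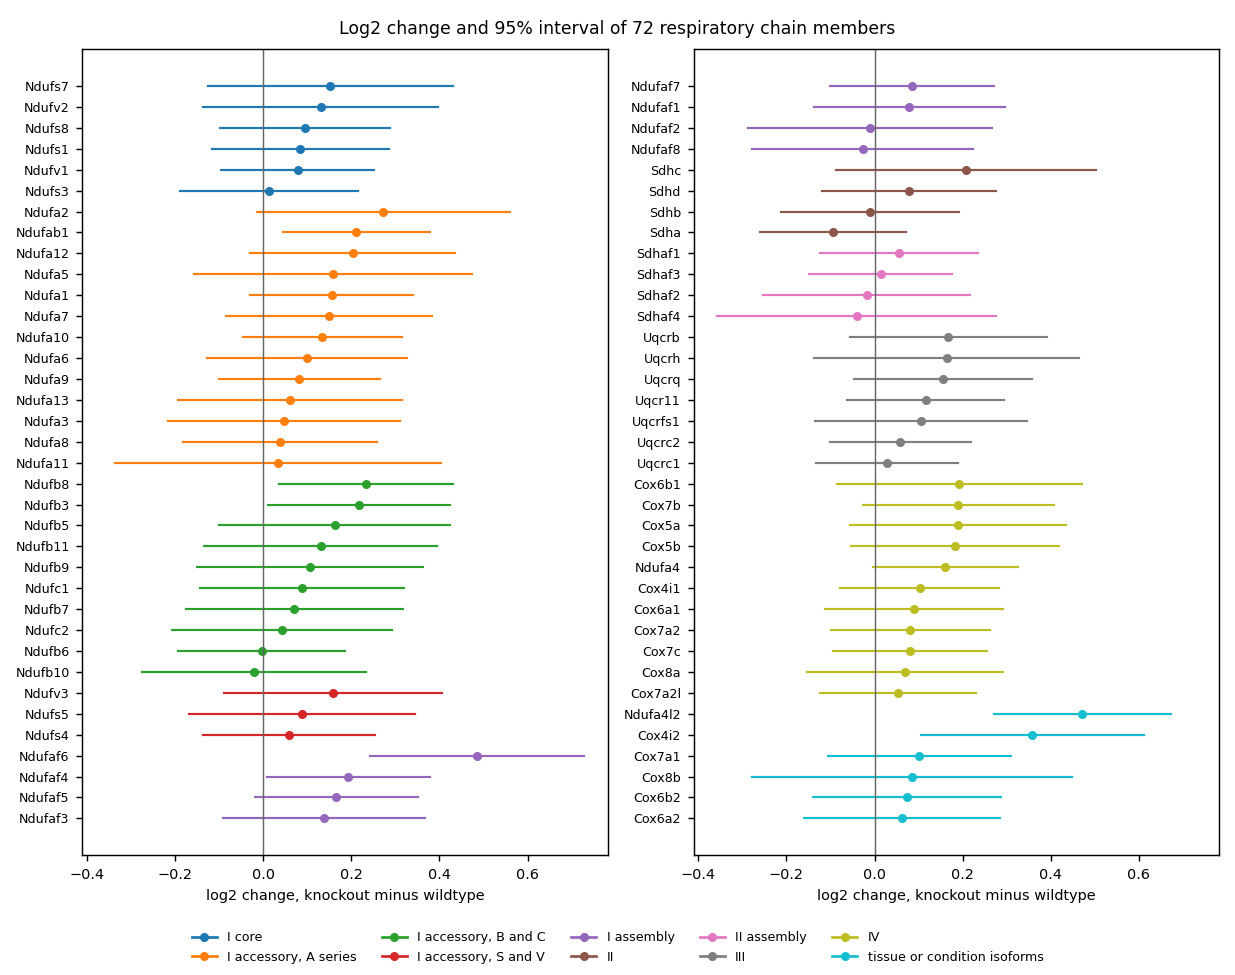
Log2 change (knockout minus wildtype, x axis) of each of the 72 members with limma's 95% interval, coloured by role. Most points lie right of 0 and most intervals span it; 7 intervals exclude 0, those of Ndufa4l2, Ndufaf6, Cox4i2, Ndufab1, Ndufb8, Ndufb3 and Ndufaf4.

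Complex I assembly factors build the complex and are absent from its finished form. Of 8 tested, 6 were above 0 and 2 below (median 0.11), and none was called. Ndufaf6, needed for the biogenesis of the membrane-embedded ND1 part, had the largest difference of all members. Its values were 6.48, 6.44 and 6.21 in knockout and 5.98, 5.73 and 5.96 in wildtype retina. The lowest knockout array stands 0.23 above the highest wildtype array (0.49, SE 0.11, unadjusted p = 0.0017 in limma's fit, adjusted p = 0.097, exact permutation p = 0.1). Its difference was between 0.41 and 0.57 when any single array was left out. Ndufaf4 had 8.21, 8.08 and 8.13 in knockout and 8.02, 7.85 and 7.96 in wildtype retina, again without overlap (0.19, SE 0.08, adjusted p = 0.35). Ndufaf5, which modifies the core subunit Ndufs7, had 7.64, 7.61 and 7.63 against 7.33, 7.52 and 7.53. Its 3 knockout values are nearly equal and just above the wildtype range (0.17, SE 0.08, adjusted p = 0.41).

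Complex II oxidises succinate and also belongs to the tricarboxylic acid cycle. Its 4 subunits lay on both sides of 0 (-0.09 to 0.21, median 0.03), none called. Sdha, the flavoprotein, had 10.18, 10.28 and 10.20 in knockout and 10.33, 10.28 and 10.34 in wildtype retina. Knockout 2 and wildtype 2 had nearly the same value, so the groups touch (-0.09, SE 0.07, adjusted p = 0.61). Sdhc, a membrane anchor, was at 0.21 (SE 0.13), with wildtype values spread from 8.57 to 9.05. Sdhd, the other anchor, was at 0.08 (SE 0.09). Of the 4 complex II assembly factors 2 were above and 2 below 0 (-0.04 to 0.06). They include Sdhaf1 at 0.06, Sdhaf3 at 0.01 and Sdhaf4 at -0.04. Complex II has no subunit encoded in mitochondrial DNA.

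Complex III passes electrons from ubiquinol to cytochrome c. All 7 tested subunits were above 0 (0.03 to 0.17, median 0.12) and none was called. Uqcrb had 11.47, 11.21 and 11.29 in knockout and 11.26, 11.18 and 11.04 in wildtype retina. Knockout 2 lay below wildtype 1 (0.17, SE 0.10, adjusted p = 0.50). Uqcrq was at 0.15 (SE 0.09) and Uqcr11 at 0.12 (SE 0.08), also with overlap.

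Complex IV reduces oxygen to water. All 11 tested widely expressed subunits were above 0 (0.05 to 0.19, median 0.10) and none was called. Ndufa4, first assigned to complex I and now known as a subunit of complex IV, had 11.22, 11.13 and 11.22 in knockout and 11.01, 11.05 and 11.05 in wildtype retina. The groups do not overlap and differ by 0.16 (SE 0.07, adjusted p = 0.38). Cox5b, a zinc-binding subunit, had knockout values of 10.07, 9.68 and 9.84, and all wildtype values lay between 9.67 and 9.69. Knockout 2 fell among the wildtype values (0.18, SE 0.10, adjusted p = 0.49).

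Cox7b is a small complex IV subunit whose gene lies close to Atrx on the X chromosome. RefSeq (GRCm38.p6) annotates 4 genes between them, of which 1, Magt1, codes for a protein. The brighter Cox7b row had 9.57, 9.31 and 9.31 in knockout and 9.28, 9.15 and 9.18 in wildtype retina. These do not overlap (0.19, SE 0.09, adjusted p = 0.43). The dimmer Cox7b row had 5.72, 6.40 and 5.64 against 6.25, 5.92 and 5.91, a difference of -0.11 (SE 0.21) in the fit of all rows, so the rows disagree in sign.

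Several complex IV subunits and Ndufa4 have isoforms used in particular tissues or states, and these held 2 of the 3 largest differences. All 6 tested isoforms were above 0 (median 0.09) and none was called. Ndufa4l2, a paralogue of Ndufa4 known as a hypoxia-induced gene that lowers complex I activity, had 6.70, 6.52 and 6.62 in knockout and 6.19, 6.02 and 6.22 in wildtype retina. The groups stand 0.30 apart at their nearest values, and the difference of 0.47 (SE 0.09, 95% interval 0.27 to 0.67) is a fold of 1.39. Its unadjusted p was 0.00059 and its adjusted p was 0.060 in limma's fit, and the exact permutation p was 0.1. The call was made under 3 alternatives: a log2 floor of 6 (adjusted p = 0.030), an intensity trend with robust spread (0.038) and array weights (0.048). The adjusted p ran from 0.030 to 0.27 over all 17 alternatives that were fitted for single members.

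Cox4i2, the isoform of Cox4i1 known from lung and from low oxygen, had 8.17, 7.88 and 8.28 in knockout and 7.68, 7.79 and 7.78 in wildtype retina. Its groups do not overlap, with knockout 2 nearest to wildtype (0.36, SE 0.11, adjusted p = 0.22). Its common counterpart Cox4i1 was at 0.10 (SE 0.08). The heart and muscle isoforms Cox6a2, Cox7a1 and Cox8b were at 0.06, 0.10 and 0.08, and the testis isoform Cox6b2 at 0.07, all with overlapping groups. Of the 8 muscle genes checked, Myh1, Myh2 and Myh4 were too dim, and the mean of the other 5 was 5.79 to 5.90 in knockout and 5.89 to 5.94 in wildtype retina.

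Ndufa4l2 and Cox4i2 are also known as genes of pericytes, the contractile cells of capillaries. Of 10 other pericyte genes, listed after these values were seen, 9 were tested and Higd1b was too dim. Their log2 changes were below 0 for 8 of 9 (median -0.09, 0 called), with Pdgfrb at -0.30 (SE 0.08, adjusted p = 0.16) and Cspg4 at -0.23. The mean of the list was 7.25 to 7.31 in knockout and 7.38 to 7.47 in wildtype retina, opposite in sign to Ndufa4l2 and Cox4i2. Of 12 tested targets of hypoxia-inducible factors, a list also made afterwards, 10 were below 0 (median -0.15). Bnip3, a mitophagy receptor, fell (-0.50, SE 0.08, adjusted p = 0.027), and Hk2, a hexokinase, was at -0.28 (adjusted p = 0.19). The isoforms thus stood apart in sign from most genes of both lists, and this contrast was not tested.

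**Figure D4:**
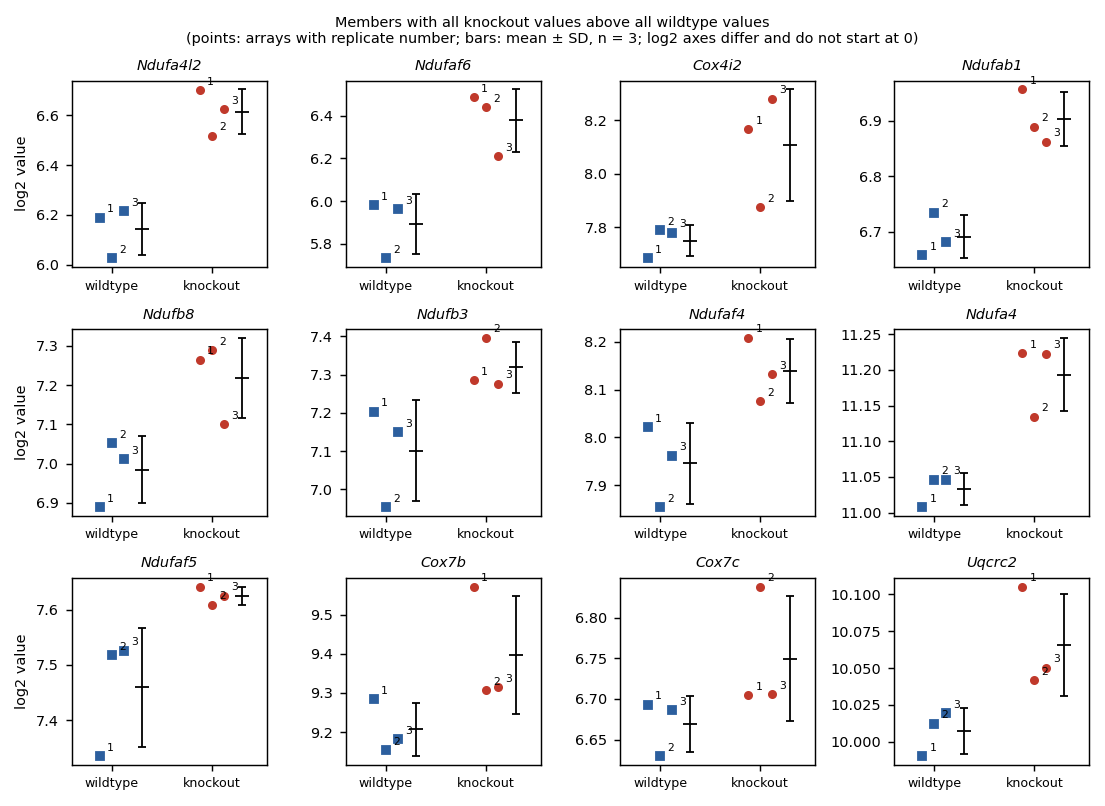
Log2 values of the 12 members whose 3 knockout values (red circles) all exceed the 3 wildtype values (blue squares), in order of p, with mean and SD (n = 3) and replicate numbers beside the points. Axes differ between panels and do not start at 0; the gap between the lowest knockout and the highest wildtype value is widest for Ndufa4l2 (0.30) and narrowest for Cox7c (0.01).

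The groups did not overlap in 12 members (16.7%), each higher in knockout, where 10.7% of all genes were separated in that direction. No member was separated in the other direction, against 9.58% of all genes. Besides those already given, the 12 include Cox7c (0.08) and Uqcrc2 (0.06), named because they complete the count. With 3 arrays against 3 the smallest exact permutation p is 0.1, which none of the 12 can go below.

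Of the 74 members, 6 have a second row past the floor. Both rows of Cox5b (0.18 and 0.13) and of Ndufa12 (0.20 and 0.07) were above 0, with the dimmer row given second here and below. The dimmer row of Cox5b reached the floor on only 3 arrays and had an SE of 0.20, and that of Ndufa12 had an SE of 0.13. The rows differed in sign for Ndufa11 (0.03 and -0.05), Ndufa8 (0.04 and -0.01), Sdhaf1 (0.06 and -0.17) and Cox7b. In each of the 6 genes the dimmer row had the lower log2 change, and the members' counts use the brighter row. None of these rows was called when all rows were tested together.

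Subunits encoded in mitochondrial DNA differed from nuclear members in which array was highest on average. All 10 tested were above 0 (0.02 to 0.07, median 0.05) and none was called. The mean of their values above wildtype was 0.01 on knockout 1, 0.08 on knockout 2 and 0.05 on knockout 3. By this mean knockout 1, the highest array for the nuclear subunits, was the lowest knockout array here. These rows are much brighter than the members. Their mean log2 values were 12.87, 12.95 and 12.91 on the knockout arrays, against 8.57, 8.43 and 8.41 for the members. The part of signal level in this contrast was not tested. Not every gene followed the mean. ND3 was highest on knockout 1 (13.255, against 13.12 and 13.17 on knockout 2 and 3). ND6, the dimmest of these rows, was highest on knockout 3 (10.64, against 10.33 and 10.52 on knockout 1 and 2). COX1, CYTB and ND4L were slightly lower on knockout 3 than on knockout 1 (COX1 13.24 and 13.27). ND2 of complex I had 12.85, 12.95 and 12.88 in knockout and 12.86, 12.81 and 12.78 in wildtype retina (0.07, SE 0.07). COX3 of complex IV had 12.79, 12.90 and 12.82 against 12.78, 12.75 and 12.76 (0.07, SE 0.07).

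Several other sets of nuclear genes for mitochondrial proteins were also mostly above 0, and knockout 1 stood highest in them too. Its mean above wildtype was 0.18 for ATP synthase, against 0.06 on knockout 2 and 0.05 on knockout 3. For mitochondrial ribosomal proteins these means were 0.22, 0.11 and 0.06, and for Cycs and Cyc1 together 0.38, 0.07 and 0.08. ATP synthase subunits were above 0 for 15 of 19 (median 0.10), led by Atp5mpl (0.27, SE 0.08, adjusted p = 0.22) and Atp5g3 (0.22). Cycs, which encodes cytochrome c, was at 0.28 (SE 0.13, adjusted p = 0.39), and Cyc1 of complex III at 0.07. Of 31 assembly factors with other names, 27 were above 0 (median 0.11), with Timmdc1 of complex I at 0.31 (SE 0.10, adjusted p = 0.25) and Lyrm7 of complex III at 0.28 (SE 0.08, adjusted p = 0.20). Mitochondrial ribosomal proteins were above 0 for 66 of 71 (median 0.13), with Mrps28 at 0.30 and Mrpl1 at 0.29. None of these genes was called.

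Not all mitochondrial genes were shifted. Enzymes of the tricarboxylic acid cycle were above 0 for 7 of 12 (median 0.02), with Suclg2 at -0.16 and Idh3g at 0.10. Regulators of mitochondrial biogenesis were above 0 for 8 of 16 (median 0.01), none called. Tfb1m, a mitochondrial rRNA methyltransferase, was at 0.18 (adjusted p = 0.35), and Nrf1, the factor whose letters were searched above, at 0.19 (adjusted p = 0.43). The Nrf1 values were 7.40, 7.15 and 7.12 in knockout and 7.10, 6.99 and 6.99 in wildtype retina. They do not overlap, but knockout 3 lay only just above wildtype 1. Of the 16 regulators, 3 were separated upward and 1 downward, where 10.7% and 9.58% of all genes were.

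Some genes outside mitochondria, and marker genes of retinal cells, also differed between the arrays. Cytosolic ribosomal proteins, listed after the array pattern was seen, were above 0 for 41 of 53 (median 0.11), and their mean above wildtype was 0.21 on knockout 1, 0.05 on knockout 2 and 0.04 on knockout 3. Rps26 was at 0.38 and Rps25 at 0.29, none of the 53 being called. The members' own means above wildtype were nearly the same on each knockout array (0.22, 0.07 and 0.05). Centring arrays on the ribosomal genes therefore brings the members close to 0 by construction: the median was then -0.01, with 34 of 72 above 0. Rod photoreceptor genes were above 0 for 7 of 10 (median 0.09), with list means of 11.51 to 11.56 in knockout and 11.39 to 11.48 in wildtype retina. Amacrine cell genes were below 0 for 9 of 9 (median -0.52, 4 called). In whole retina, fewer cells of a type and less RNA per cell cannot be told apart, and the part of cell mixture in the members' shift was not tested.

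Lens RNA was uneven: the mean of 13 lens genes reached 9.78 on knockout 2 and 11.2 on wildtype 1, while the remaining 4 arrays lay between 5.66 and 6.09. Of 8 pigment epithelium genes tested, 4 were lowest on knockout 1 (the pigment genes Pmel, Mlana, Tyr and Tyrp1) and 4 on wildtype 1 (Rpe65, Lrat, Rgr and Ttr). Best1 was too dim. The part of these differences in the members' shift was not tested.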

How the data were processed

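The deposited values are on a log2 scale, 1 for each probe set and array, and the submitters' processing notes name RMA as the method. Its version, the software and the genome build: not given in the sources used here. RMA equalises array distributions, so a change in total RNA per cell is not seen. Array medians were 5.57 to 5.64, and no depth applies to arrays: their number limits the precision.

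Of 41345 probe sets 23521 have 1 symbol in the platform annotation, 1814 several and 16010 none in the annotation used here. Probe sets had to reach a log2 floor of 5 on 3 or more arrays, and the brightest passing one stood for its gene, which left 15619 genes. All 74 member genes matched the RefSeq table (GRCm38.p6), used for names and neighbours.

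Differences (knockout minus wildtype) were fitted over all 15619 genes with limma 3.58.1 in R 4.3.3, genotype as the only term, 2-sided, with Benjamini-Hochberg adjustment over all genes. SE is limma's moderated standard error. P-values judge each difference against the spread between these samples, with each gene's variance moderated by limma over all genes. In simulated data with the same 15619 genes, the fit called 50 of 100 that were given a log2 change of 0.5, 91 of 100 given 1, and 6 that were given none. The simulated noise was drawn separately for each gene and array, so shifts shared by many genes on 1 array were left out. Changes as small as the members' median of 0.09 were not simulated, so these rates do not describe the members. Figures used matplotlib 3.10.9.

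Members and lists were chosen with earlier results of these data known; the pericyte, hypoxia and cytosolic ribosomal lists were added later. Named members are up to 3 per role with the smallest p, all tissue isoforms, Cox7b, and members whose probe sets differ in sign. Of each related list up to 2 genes are named. Alternatives were other filters, scalings, spread models, a replicate block, other units, a fold threshold, lens terms and left-out arrays.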

Additional observations from a re-analysis of the deposited data

How the results depend on the processing

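The median log2 change and the count of members above 0 kept their direction under each of 17 other settings; centring arrays on ribosomal protein genes, chosen after seeing the data, gave a median of -0.0075 and 34 members above 0. Leaving out 1 array gave medians of 0.054 to 0.129, 51 to 69 members above 0, 0 members called and 25 to 141 genes called over the whole table. The members called went from 0 to 1 (Ndufa4l2) with a floor of 6, an intensity trend and array weights. Genes called over the whole table went from 129 to 74 without a filter, 209 with a floor of 6, 282 with an intensity trend, 68 with the replicate block, 74 with every probe set as a unit and 36 without the lens-rich arrays, where fewer samples were tested. Same-numbered deviations correlated at -0.27, -0.38 and -0.06, and no sample correlated best with its own number. These values gave no sign of pairing by replicate number. Each group has few arrays, and the lens-rich arrays of knockout and wildtype retina carry different numbers. Whether samples share litters or batches therefore cannot be told from this check.

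Among the named members, some near 0 changed sign: Ndufa11 (-0.0048) and Ndufa8 (-0.0041) with a second quantile normalization, Ndufa11 (-0.011) and Sdhaf1 (-0.059) with the mean of probe sets, Sdhaf4 (0.0043) with array weights, and Cox8b (-0.090), Ndufa8 (-0.0059) and Sdhaf3 (-0.021) without the lens-rich arrays. Of all 72 members, 24 had both signs among the fits that leave out 1 array, 17 of them above 0 with all arrays. The one with the highest log2 change among these was Ndufa5 (0.16, range -0.0056 to 0.26). Among named members the ranges were -0.029 to 0.13 for Cox6a2, -0.0010 to 0.12 for Cox6b2, -0.023 to 0.26 for Cox8b, -0.17 to 0.17 for Ndufa11, -0.029 to 0.10 for Ndufa8, -0.0036 to 0.12 for Ndufs4, -0.011 to 0.028 for Sdhaf3 and -0.16 to 0.023 for Sdhaf4. The cause was not tested.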
